A study of Mus musculus with 6 samples.

Results

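The genes described here were lower in every luteolin tumour library than in every control library, by a fixed margin. A gene was chosen by its CPM (the value as a share of the library total, times 1000000). It needed a control mean of at least 5 CPM and a lowest control value at least 1.5 times the highest luteolin value. Symbols of predicted genes, RIKEN clones and the Gst, Psg, Smad, Cyp, globin, mitochondrial and ribosomal protein families were left out. Of 21720 symbols in the table, 47 were selected on these values. The same values are therefore given below as a description, and p-values or calls for these genes add no evidence.

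The RNA came from tumours of H22, a mouse hepatocellular carcinoma line, injected under the skin of wild-type female BALB/c mice aged 6 to 8 weeks. By gavage, 1 group received luteolin, a plant flavonoid, at 200 mg/kg and the other, the control group, 0.5% carboxymethyl cellulose sodium alone. Both were dosed daily with 0.2 mL over 21 days from a tumour volume of about 50 mm3. Each group gave 3 libraries, called control and luteolin replicates 1 to 3, and the labels do not say whether each came from a separate mouse. Total counts were 69391357, 66256017 and 66655030 in control replicates 1 to 3 and 61081637, 80442954 and 63965501 in luteolin replicates 1 to 3. A transplanted tumour also holds host stroma, vessels and immune cells, so that in bulk RNA fewer cells of a type and less RNA per cell cannot be told apart. Of the markers of the labelled cell type, the liver transcription factors Foxa1 and Foxa2 were at 0 in all libraries and Hnf4a did not exceed 0.327 CPM, while the fetal liver protein Afp had 59.8, 65.1 and 42.02 CPM in the control libraries and 32.7, 43.5 and 38.7 CPM in the luteolin libraries. The oncofetal protein Gpc3 had 1.20, 0.619 and 1.26 CPM against 8.27, 9.70 and 3.13 CPM, and the liver factor Cebpa 16.5, 13.8 and 14.5 CPM against 26.5, 126 and 21.7 CPM, both higher in every luteolin library. The epithelial and hepatoma-associated protein Epcam had 119.8, 124 and 130.4 CPM against 61.1, 106 and 46.6 CPM, and Foxa3 and the bile acid receptor Nr1h4, at under 2 CPM in all libraries, were also lower in every luteolin library. The summed level of 23 secreted hepatocyte proteins was 393, 406 and 403 CPM in the control and 468, 654 and 449 CPM in the luteolin libraries, with 4 of them higher and 1 lower in every luteolin library. The most abundant, the iron carrier Trf, had 349, 288 and 312 CPM against 122, 130 and 283 CPM. Of the 21 tested secreted proteins, 1 had a log2 fold change below 0, and the median was 1.64. The sums overlapped between the groups for 20 liver transcription factors and nuclear receptors, led by Cebpb (49.8 to 89.7 against 87.4 to 348 CPM), of which 5 were higher and 2 lower in every luteolin library. They also overlapped for 20 oncofetal and hepatoma-associated genes, led by Hmga2 (681 to 884 against 546 to 836 CPM), of which 3 were higher and 1 lower.

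The 47 genes do not form a single pathway, but several belong to known machines. Axonemal dyneins are very large motor proteins that slide the microtubules of motile cilia and sperm tails, and each heavy chain is made from its own Dnah gene. Mucins are heavily glycosylated proteins of epithelial surfaces, TRIM proteins are mostly ubiquitin ligases, zinc finger proteins mostly bind DNA, and scramblases are named for moving lipids across the plasma membrane. Sorted after the selection by what their proteins do, the genes comprised 7 of or related to motors and axonemes and 3 of stereocilia and cell polarity. A further 7 were of epithelial surfaces and secretions, 5 had neuronal links, 7 were of signalling and 4 of membrane lipids and endocytosis. The rest were 3 enzymes of metabolism and protein modification, 7 zinc finger, TRIM and SPEER genes, and 4 others.

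Few genes met the margin. Of 10252 genes with a control mean of at least 5 CPM and a name that was not left out, 1324 (12.9%) had every control library above every luteolin library, and 223 (2.18%) had a lowest control value at least 25% above the highest luteolin value. A ratio of at least 1.5 was met by 47 of them, one of at least 2 by 10 and one of at least 3 by 5. The reverse condition, in which every luteolin library exceeded every control library by the same 1.5 times, selected 770 of 11117 genes (6.93%) with a luteolin mean of at least 5 CPM. Just inside the limit lay Dnajb1 at 1.502, Trim69 at 1.507 and Dmtn at 1.509, and just outside it Slc35e2 at 1.493, Zc2hc1c at 1.49 and Kcnk5 at 1.483. Close to the limit on the control mean, Espnl at 5.21 CPM and Rtkn2 at 6.15 CPM were inside, and Gcnt7 at 4.97 CPM was outside.

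**Figure D1:**
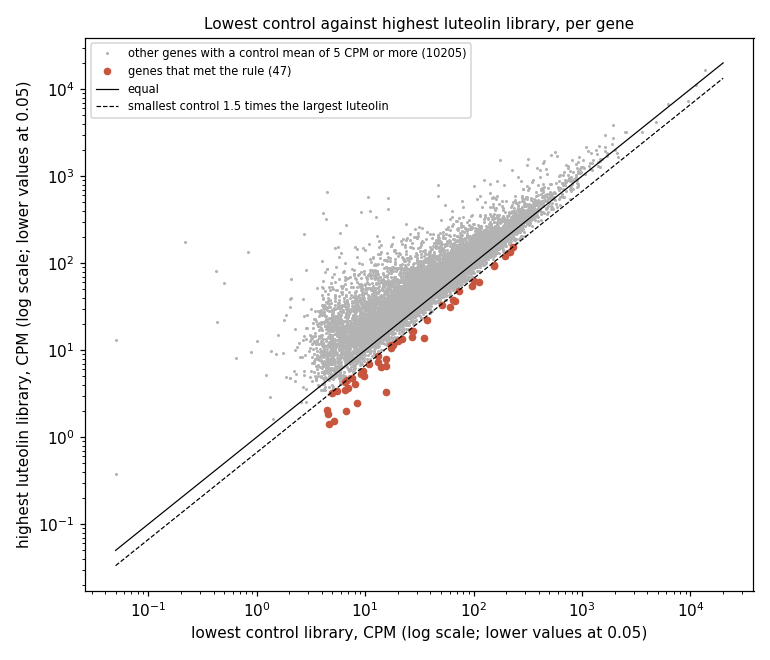
Each point is a gene with a control mean of at least 5 CPM, placed by its lowest control library on the horizontal axis and its highest luteolin library on the vertical axis, both in CPM on log scales. The 47 selected genes lie below the dashed line, where the lowest control is 1.5 times the highest luteolin value, and 10205 other genes do not.

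As a group the genes had a median ratio of control to luteolin mean of 2.3, with a range from 1.70 (Apbb2) to 10.2 (Vmn1r43). The ratio was at least 2 for 36 genes and at least 3 for 12. Their summed level was 2188, 2267 and 2412 CPM in control replicates 1 to 3 and 1148, 1030 and 1106 CPM in luteolin replicates 1 to 3. Expressed against its own control mean, the median gene of the group stood at 46.8%, 39.98% and 44.7% in luteolin replicates 1, 2 and 3, where the median of all 10252 genes stood at 96.2%, 96.2% and 97.4%. All 47 passed edgeR's filter on low counts, and their median log2 fold change was -1.24 against -0.01 over all 14963 genes tested. Since the selection used this contrast, the following counts carry no further information about the genes. The quasi-likelihood test of edgeR with Benjamini-Hochberg adjustment placed 17 of the 47 at an adjusted p under 0.05, where 0.187% of all tested genes were lower and 1.34% higher. With any one control library or luteolin replicate 1 left out, 0 of all tested genes were lower at that threshold. At an unadjusted p under 0.05 with a fold change over 2, the threshold of the study, 40 of the 47 were lower, against 1.52% lower and 11.3% higher among all tested genes. Every control library exceeded every luteolin library for 11.0% of all tested genes. For the counts in gene lists below, 6.44% lower and 14.0% higher of all tested genes had an unadjusted p under 0.05 in edgeR. With DESeq2, 2.58% lower and 9.58% higher had an adjusted p under 0.05. Where a list holds genes of the group, its counts of lower genes partly restate the selection.

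**Figure D2:**
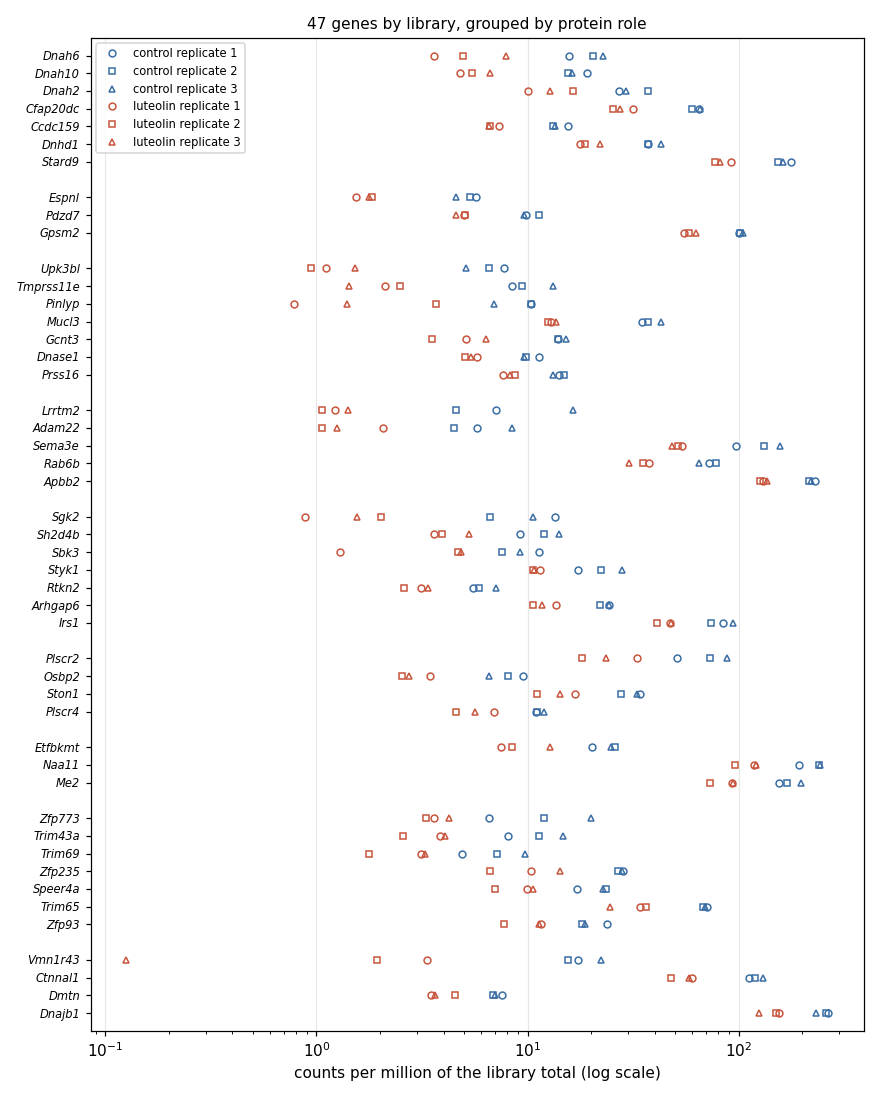
Level of each of the 47 genes in each library, in CPM on a log scale, with control libraries in blue and luteolin libraries in red, and genes grouped by protein role and ordered by ratio within a group. In each row the blue and red symbols do not overlap, by the selection, and the lowest luteolin value is that of Vmn1r43 in replicate 3 (0.125 CPM).

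A total of 3 dynein heavy chains and Cfap20dc, named after the ciliary protein Cfap20, belonged to the group. Their RefSeq start regions are shown before their values. All 4 shared a short motif, the CCAAT box, that the selection did not use. Each window runs from 250 bases before to 50 bases after the annotated start, on build GRCm38.p6, in the direction of the gene, and capitals mark CCAAT or its reverse complement ATTGG. The windows are chr11:69549059-69549358 (minus strand) for Dnah2, chr6:73221582-73221881 (minus strand) for Dnah6, chr5:124724835-124725134 (plus strand) for Dnah10 and chr14:8666241-8666540 (minus strand) for Cfap20dc.
Dnah2: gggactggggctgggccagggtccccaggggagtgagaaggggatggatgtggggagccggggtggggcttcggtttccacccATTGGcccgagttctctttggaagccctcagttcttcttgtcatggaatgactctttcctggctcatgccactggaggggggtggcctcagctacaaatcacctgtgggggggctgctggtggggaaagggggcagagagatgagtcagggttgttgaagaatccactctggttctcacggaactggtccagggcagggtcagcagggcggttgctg
Dnah6: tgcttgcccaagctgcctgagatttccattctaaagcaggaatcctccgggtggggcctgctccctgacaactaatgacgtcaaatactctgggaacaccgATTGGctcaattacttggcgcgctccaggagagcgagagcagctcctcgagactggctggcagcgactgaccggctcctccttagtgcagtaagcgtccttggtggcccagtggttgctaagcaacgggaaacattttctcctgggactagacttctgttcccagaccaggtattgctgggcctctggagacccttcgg
Dnah10: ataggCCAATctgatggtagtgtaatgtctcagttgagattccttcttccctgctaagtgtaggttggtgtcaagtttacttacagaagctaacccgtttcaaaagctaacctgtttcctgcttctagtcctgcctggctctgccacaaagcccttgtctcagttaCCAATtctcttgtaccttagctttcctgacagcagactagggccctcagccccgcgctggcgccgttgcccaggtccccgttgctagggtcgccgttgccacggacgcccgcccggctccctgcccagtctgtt
Cfap20dc: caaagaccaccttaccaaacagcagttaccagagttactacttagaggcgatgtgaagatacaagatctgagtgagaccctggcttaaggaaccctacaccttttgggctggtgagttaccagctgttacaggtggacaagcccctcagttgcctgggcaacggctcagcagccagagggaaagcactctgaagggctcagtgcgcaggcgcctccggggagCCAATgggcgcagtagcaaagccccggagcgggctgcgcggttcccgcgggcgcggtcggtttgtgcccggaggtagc
The Dnah10 window held 2 such boxes and the others 1 each. Of the 47 genes, 35 had 1 or more windows in the RefSeq table, 43 windows in all. A CCAAT box on either strand was present in 44.2% of these windows and in 37.8% of the 10593 windows of the genes with a control mean of at least 5 CPM. The full cyclic AMP response element TGACGTCA occurred in 2 windows, those of Dnah6 and Mucl3 (4.7% against 3.1%), and the half-site GTTGCCA of RFX factors, which are known regulators of ciliary genes, in 3, those of Dnah10, Speer4a and Vmn1r43 (7.0% against 3.5%). These were 3 of 29 motifs searched on both strands, and a match of letters is a description, not a binding site.

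The 3 dynein genes had luteolin means of 5.49, 5.63 and 13.1 CPM for Dnah6, Dnah10 and Dnah2, in that order, against control means of 19.7, 16.97 and 31.2 CPM. Dnah6, an inner arm heavy chain, had 15.7, 20.5 and 22.9 CPM in control replicates 1 to 3 and 3.62, 4.96 and 7.88 CPM in luteolin replicates 1 to 3. Dnah10, also an inner arm heavy chain, had 19.2, 15.5 and 16.2 CPM against 4.78, 5.48 and 6.61 CPM. Dnah2, of the same class, had 27.3, 37.3 and 29.1 CPM against 10.1, 16.4 and 12.8 CPM. The highest luteolin value lay in replicate 3 for Dnah6 and Dnah10 and in replicate 2 for Dnah2, and the groups do not overlap in any of the 3 genes. The ratios of means were 3.59, 3.02 and 2.38, with log2 fold changes of -1.89 (standard error 0.36), -1.63 (0.24) and -1.30 (0.24). Cfap20dc, whose protein has a domain shared with the ciliary protein Cfap20, had 64.6, 60.2 and 65.8 CPM against 31.6, 25.4 and 27.4 CPM, a ratio of 2.26.

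The table held 15 Dnah genes, of which 10 were tested, 4 had a control mean of at least 5 CPM and 7 stayed below 1 CPM in every library. The fourth well-expressed gene, Dnah17, a chain of sperm outer arms, had 25.4, 22.6 and 17.2 CPM in the control libraries and 25.3, 29.4 and 25.4 CPM in the luteolin libraries. Its groups overlapped, and the log2 value was 0.26 (standard error 0.20, adjusted p = 0.524 in edgeR's test). Among the low genes, Dnah5 had 1.12, 2.69 and 2.19 CPM against 0.622, 0.796 and 0.750 CPM (log2 fold change -1.52, standard error 0.50, edgeR adjusted p = 0.168), and Dnah8 had 0.663, 0.558 and 1.40 CPM against 1.49, 6.04 and 3.03 CPM (1.95, standard error 0.66, adjusted p = 0.171). Foxj1, the master transcription factor of motile cilia, did not exceed 0.490 CPM in any library. Of the RFX factors, Rfx1, Rfx2 and Rfx3 had log2 fold changes of 0.54, 0.01 and -0.15. Their standard errors were 0.31, 0.36 and 0.38, and their groups overlapped, while Rfx5 is described at the end. In a list of 36 tested genes of motile and primary cilia, 2 of them in the group, 1 gene was lower and 0 higher at an adjusted p under 0.05 in edgeR's test, 6 and 2 at an unadjusted p under 0.05, and 3 and 1 with DESeq2. The median log2 fold change was -0.29, and every control library exceeded every luteolin library for 12. The gene of this list that was lower at an adjusted p under 0.05 in edgeR's test was Cfap20dc, of the group. In a set of 105 tested genes taken by symbol alone (Cfap, Ift, Bbs, Dnah, Dnai, Dnal and Wdr), 4 of them in the group, the Wdr symbols stand for WD-repeat proteins in general and many of these are not known from cilia. In this mixed set, the edgeR counts were 2 lower and 0 higher adjusted, 14 and 4 unadjusted, and the DESeq2 counts 6 and 2. The 2 lower at an adjusted p were Cfap20dc and Dnah10, both of the group. In the set, 28 were separated downwards, and the median was -0.17. The tested genes of this set outside the group with the smallest p were Wdr6, a WD-repeat protein, at -0.73 (standard error 0.21, adjusted p = 0.128 in edgeR's test), and Ift22, at 1.79 (0.53, adjusted p = 0.137).

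**Figure D3:**
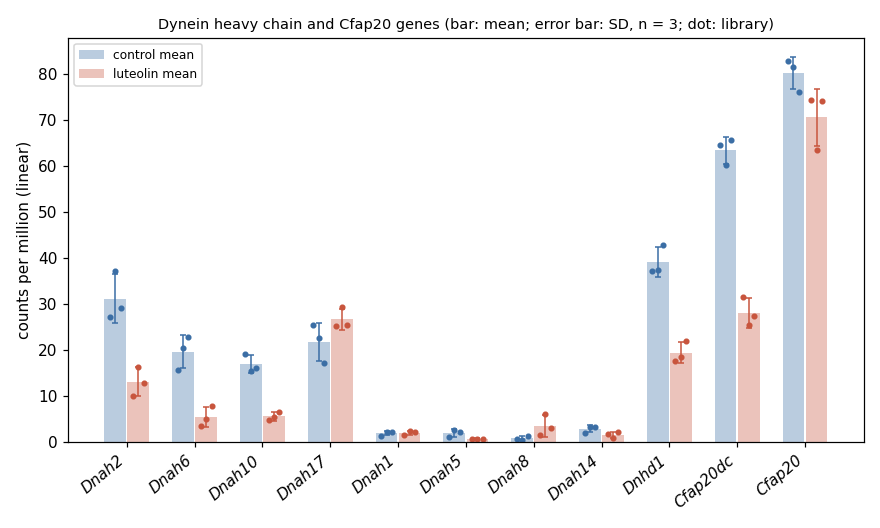
CPM on a linear axis for dynein heavy chain genes with at least 1 CPM in some library, the dynein-like Dnhd1, and Cfap20dc with its relative Cfap20, as the mean of 3 libraries (bar), their SD (error bar) and each library (dot). Dnah2, Dnah6, Dnah10, Dnhd1 and Cfap20dc are separated downwards by the selection, Dnah5 and, narrowly, Cfap20 are lower and Dnah8 is higher in every luteolin library, and Dnah17, Dnah1 and Dnah14 overlap.

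The remaining genes of motors and microtubules were lower by about 2 times. Dnhd1, a dynein heavy chain domain gene needed for sperm tails, had 37.2, 37.4 and 42.9 CPM against 17.7, 18.6 and 22.03 CPM. Stard9, a kinesin of mitotic spindle poles, had 176, 154 and 163 CPM against 91.5, 77.1 and 81.6 CPM, and the coiled-coil gene Ccdc159 had 15.6, 13.2 and 13.6 CPM against 7.32, 6.64 and 6.54 CPM. Of the whole group, 6 genes (12.8%) had a longest GENCODE transcript over 10000 bases, against 2.48% of the 10200 background genes with a length. These were Dnah2, Dnah6, Dnah10, Dnhd1, Stard9 and Vmn1r43, and the limit of 10000 bases was chosen after the lengths were seen. The median length was 3424 bases in the group and 3238 bases in the background. For Dnhd1, 22.9% of the exon bases are shared with Gm45799 on the same strand, and for Stard9, 10.0% with Cdan1 on the opposite strand, so that reads of those stretches may belong to either gene.

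The actin-based protrusions of hair cells and the orientation of the spindle were represented by 3 genes. Espnl, an espin-like protein of stereocilia, had 5.72, 5.33 and 4.58 CPM in the control and 1.54, 1.83 and 1.77 CPM in the luteolin libraries, a ratio of 3.04. Pdzd7, a scaffold of the Usher protein complex at the stereocilium base, had 9.84, 11.4 and 9.66 CPM against 5.01, 5.05 and 4.58 CPM. Gpsm2, or LGN, which links G proteins to the spindle motor machinery, had 101, 102 and 105 CPM against 55.3, 58.1 and 62.9 CPM. For Gpsm2 the spread within each group was small beside the gap, with means of 102 ± 2.29 and 58.8 ± 3.82 CPM (SD, n = 3 each). Espn, the close relative of Espnl, had 10.5, 6.04 and 3.09 CPM against 3.18, 4.96 and 3.83 CPM, and its groups overlapped.

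A fixed list of 21 tested genes of epithelial identity held 0 genes of the group. At the threshold of the study, 0 genes of that list were lower and 10 higher, with a median log2 fold change of 2.06. Among genes of epithelial surfaces and secretions in the group, Mucl3 and Gcnt3 both bear on mucins. Mucl3, a mucin-like membrane protein, had 34.8, 37.2 and 42.7 CPM in control replicates 1 to 3 and 12.9, 12.4 and 13.7 CPM in luteolin replicates 1 to 3. Its log2 fold change was -1.60 (standard error 0.18), and the 3 luteolin libraries differed from each other by less than the control libraries did. Gcnt3, the enzyme that builds branched O-glycans on mucins, had 13.9, 14.0 and 15.2 CPM against 5.11, 3.53 and 6.33 CPM. Its relatives went different ways, with Gcnt7 lower and Gcnt1, Gcnt2 and Gcnt4 higher in every luteolin library. Gcnt2 had 80.5, 96.2 and 111 CPM against 134, 134 and 128 CPM (log2 fold change 0.41, standard error 0.17, edgeR adjusted p = 0.229). Gcnt7, which missed the limit on the control mean, had 6.14, 4.03 and 4.74 CPM against 1.95, 1.57 and 1.47 CPM, whereas Gcnt1 had 2.42, 3.20 and 7.02 CPM against 10.8, 14.8 and 9.58 CPM and Gcnt4 0.476, 0.725 and 0.840 CPM against 2.24, 2.37 and 3.69 CPM. The log2 fold changes of Gcnt7, Gcnt1 and Gcnt4 were -1.62, 1.42 and 1.98, each at an unadjusted p under 0.05 and an adjusted p above 0.05 in edgeR's test. A list of 30 tested glycosyltransferases and mucins held Mucl3 and Gcnt3, so its counts of lower genes partly restate the selection. In edgeR's test, 1 was lower and 1 higher at an adjusted p under 0.05. At an unadjusted p under 0.05 the counts were 5 and 9, and at an adjusted p under 0.05 with DESeq2, 4 and 5. At the threshold of the study 3 were lower, namely Mucl1, Mucl3 and Gcnt3, and 5 higher. The median log2 fold change of the list was 0.32.

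Among the other surface and secreted genes were Tmprss11e and Upk3bl, and of the 47 genes only Vmn1r43 had a wider gap between its lowest control and highest luteolin value. Tmprss11e, a membrane-bound serine protease of epithelia, had 8.43, 9.37 and 13.3 CPM against 2.11, 2.47 and 1.42 CPM, and its lowest control was 3.41 times its highest luteolin value. Upk3bl, related to the urothelial plaque protein uroplakin, had 7.71, 6.57 and 5.13 CPM against 1.11, 0.945 and 1.52 CPM, a gap of 3.38 times. Pinlyp, a secreted protein with a phospholipase inhibitor domain, had 10.3, 10.3 and 6.92 CPM against 0.786, 3.68 and 1.39 CPM, with luteolin replicate 2 well above the other two. Dnase1, which cuts extracellular DNA, and Prss16, a protease best known from thymic epithelium, had ratios of 1.89 and 1.71. Tmprss11b, from the same gene family as Tmprss11e, had 11.9, 27.6 and 32.8 CPM against 13.3, 5.43 and 8.08 CPM, and control replicate 1 lay below luteolin replicate 1. An antisense gene overlaps 16.4% of the exon bases of Dnase1 on the opposite strand.

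Genes with neuronal links spanned the weakest and nearly the strongest ratios. Of these, Rab6b and Apbb2 are not surface or guidance proteins. A fixed list of 26 tested nervous-system and synapse genes held 0 genes of the group. At the threshold of the study, 0 genes of that list were lower and 7 higher, with a median log2 fold change of 0.31. Lrrtm2, a synaptic adhesion protein, had 7.11, 4.60 and 16.5 CPM in the control libraries and 1.23, 1.06 and 1.41 CPM in the luteolin libraries, a ratio of 7.64. Without control replicate 3, which was the highest, its log2 fold change went from -2.98 to -2.28. Adam22, a catalytically inactive relative of the ADAM proteases that binds LGI proteins at synapses, had 5.78, 4.48 and 8.40 CPM against 2.06, 1.06 and 1.251 CPM. Sema3e, the secreted guidance ligand of plexin D1, had 97.3, 132 and 157 CPM against 53.9, 51.7 and 48.1 CPM. Its 3 luteolin values lay close together (SD 2.93 CPM) and its control values did not (SD 30.0 CPM), with -1.38 as the log2 fold change (standard error 0.21). Plxnd1, the receptor, had 31.1, 18.6 and 21.7 CPM against 36.1, 63.0 and 37.1 CPM, at 0.89 on the log2 scale (standard error 0.29, edgeR adjusted p = 0.159). In the family of 29 tested semaphorins and plexins, Sema3e was the only gene lower at the threshold of the study, 7 were higher, and the median log2 fold change was 0.59. Rab6b, the form of the Golgi GTPase Rab6 that is abundant in neurons, had 72.4, 78.0 and 64.8 CPM against 37.7, 35.1 and 30.2 CPM, while Rab6a had 64.0, 92.6 and 117 CPM against 84.2, 53.7 and 95.9 CPM with overlapping groups. Apbb2, which binds the amyloid precursor protein, had the smallest ratio of the group and 230, 215 and 221 CPM against 130, 126 and 136 CPM.

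Signalling genes comprised kinases, adaptors and regulators of small GTPases. Sgk2, a kinase of the serum and glucocorticoid-regulated family, had 13.5, 6.61 and 10.6 CPM against 0.884, 2.01 and 1.55 CPM, a ratio of 6.90. Sgk1 had 98.7, 89.7 and 106 CPM against 98.7, 104 and 106 CPM, and Sgk3 1.67, 4.15 and 6.53 CPM against 9.73, 13.5 and 9.13 CPM. Of the 3 kinases of this family, Sgk2 alone was lower, Sgk1 had a log2 fold change of 0.03 (standard error 0.14), and Sgk3 had one of 1.33 (standard error 0.51, adjusted p above 0.05 in edgeR's test). Irs1, the docking protein of the insulin receptor, had 84.7, 73.6 and 93.8 CPM against 47.2, 41.1 and 47.7 CPM, or -0.93 on the log2 scale (standard error 0.17). Irs2 had 60.97, 44.4 and 41.2 CPM against 33.4, 39.2 and 39.2 CPM, so that its groups were also separated, by a smaller margin. Exons of Irs1 share 30.9% of their bases with Gm9747 on the opposite strand. Arhgap6, a GTPase-activating protein for small GTPases, had 24.4, 22.01 and 24.3 CPM against 13.6, 10.6 and 11.7 CPM, and 11.01% of its exon bases are shared with Hccs on the opposite strand. The kinases Sbk3 and Styk1, the SH2 domain protein Sh2d4b and the GTPase-binding protein Rtkn2 had ratios of 2.61, 2.06, 2.76 and 2.04.

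Of the genes of membrane lipids, 2 scramblases lie on chromosome 9 with 1 protein-coding gene between them. Plscr2 had 51.1, 73.4 and 88.0 CPM in the control libraries and 33.1, 18.0 and 23.5 CPM in the luteolin libraries. Plscr4 had 10.95, 11.1 and 11.97 CPM against 6.96, 4.59 and 5.63 CPM. In both, luteolin replicate 1 was the highest and replicate 2 the lowest of the treated libraries. Plscr1 had 70.7, 79.1 and 69.7 CPM against 60.2, 40.3 and 54.9 CPM, a smaller separation, and Plscr3 had 68.0, 50.5 and 38.8 CPM against 53.3, 82.2 and 41.9 CPM with overlapping groups. Osbp2, an oxysterol-binding protein, and Ston1, an adaptor of clathrin-mediated endocytosis, had ratios of 2.78 and 2.26.

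Of the 3 enzymes, Me2 and Naa11 were abundant and Etfbkmt was less so. Per kilobase of the longest transcript, the highest control levels belonged to Dnajb1 (84.5 CPM per kilobase), Naa11 (65.9), Me2 (65.8), Plscr2 (37.3), Apbb2 (33.5), Ctnnal1 (32.9), Gpsm2 (29.3) and Cfap20dc (23.7), and the lowest to Adam22 (0.673). Me2, the mitochondrial malic enzyme, had 155, 169 and 197 CPM against 93.2, 73.1 and 94.1 CPM. Its cytosolic counterpart Me1 had 40.6, 39.1 and 45.8 CPM against 36.5, 79.8 and 33.9 CPM, with luteolin replicate 2 the highest of all libraries and the other two below every control. Naa11, an amino-terminal acetyltransferase known from testis, had 194, 241 and 242 CPM against 118, 95.9 and 121 CPM, while its relative Naa10 had 49.1, 48.6 and 33.7 CPM against 41.5, 58.2 and 44.0 CPM with overlapping groups. Etfbkmt, which methylates the electron transfer flavoprotein, had 20.2, 26.0 and 24.9 CPM against 7.48, 8.43 and 12.8 CPM.

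Of zinc finger, TRIM and SPEER genes, several have near copies elsewhere in the genome, and their values are uncertain where reads could be divided among copies. Zfp773 had 6.54, 11.9 and 19.97 CPM in the control libraries and 3.59, 3.29 and 4.25 CPM in the luteolin libraries. Zfp235 had 28.3, 26.8 and 27.9 CPM against 10.4, 6.64 and 14.3 CPM, and Zfp93 had 23.8, 18.0 and 18.7 CPM against 11.5, 7.76 and 11.4 CPM. These last 2 lie on chromosome 7 with 4 protein-coding genes between them. The family of 439 tested zinc finger genes held these 3 genes of the group. Across the family, 0 genes were lower and 1 higher at an adjusted p under 0.05 in edgeR's test. At an unadjusted p under 0.05 the counts were 35 and 21, and at an adjusted p under 0.05 with DESeq2, 17 and 12. At the threshold of the study they were 11 and 17, and the family had a median log2 fold change of -0.30. Outside the group, its smallest p values belonged to Zfp469, at 2.65 (standard error 0.44, edgeR adjusted p = 0.045), and Zfp169, at -0.77 (0.16, adjusted p = 0.0718).

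Trim43a, from a set of near copies, had 8.04, 11.3 and 14.7 CPM against 3.83, 2.57 and 4.08 CPM. Its copies Trim43b and Trim43c had 10.9, 29.7 and 48.8 CPM against 15.9, 4.69 and 13.2 CPM and 9.01, 16.9 and 28.8 CPM against 10.4, 3.57 and 12.4 CPM. In both copies the lowest control lay below a luteolin library, and the order of the 3 control libraries was the same as for Trim43a. Trim65, a ubiquitin ligase of antiviral signalling, had 71.0, 67.8 and 69.3 CPM against 34.2, 36.4 and 24.6 CPM, and Trim69 had 4.90, 7.20 and 9.75 CPM against 3.11, 1.77 and 3.25 CPM. Among 126 tested Trim and Rnf genes, 1 was lower and 0 higher at an adjusted p under 0.05 in edgeR's test, 14 and 16 at an unadjusted p under 0.05, and 10 and 11 with DESeq2. The gene lower at an adjusted p under 0.05 in edgeR's test was Trim65, of the group. At the threshold of the study the 3 genes of the group were the only ones lower, against 12 higher. Rnf165, at 3.34 (standard error 0.67, adjusted p = 0.0661 in edgeR's test), and Rnf19b, at 0.86 (0.19, adjusted p = 0.0815), had the smallest p of the others. Speer4a, of a testis-expressed family in several copies, had 17.2, 23.5 and 22.7 CPM against 9.95, 7.05 and 10.6 CPM.

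Dnajb1, the HSP40 partner of the chaperone HSP70, was the most abundant gene of the group, with 266, 260 and 233 CPM in the control libraries and 155, 150 and 124 CPM in the luteolin libraries. A list of 22 chaperone and heat shock genes, all tested, held no other gene of the group. Its median log2 fold change was -0.37, 18 of 22 were below 0, and every control library exceeded every luteolin library for 11 of 22, against 11.0% of all tested genes. Dnajb1 was the only one at an adjusted p under 0.05 in edgeR's test. At an unadjusted p under 0.05, 9 were lower and 0 higher, and at an adjusted p under 0.05 with DESeq2, 6 and 0. The 11 separated genes and these 9 include Dnajb1, which the selection fixed. Hsph1, the nucleotide exchange factor HSP110, had a mean of 712 ± 106 CPM in the control and 366 ± 90.5 CPM in the luteolin group (SD, n = 3 each), which is -1.0015 on the log2 scale (standard error 0.24, edgeR adjusted p = 0.0926). The co-chaperone Stip1 had 631 ± 7.43 and 442 ± 38.2 CPM (SD, n = 3 each), at -0.56 (0.14, adjusted p = 0.0976 in the same test), and Hsp90ab1 had 5160 ± 293 and 4083 ± 133 CPM (SD, n = 3 each), at -0.38 (0.11, adjusted p = 0.136 in the same test). In contrast, the inducible HSP70 genes Hspa1a and Hspa1b, which are near copies of each other, had log2 fold changes of 0.62 and 0.43 with standard errors of 0.32 and 0.33.

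**Figure D4:**
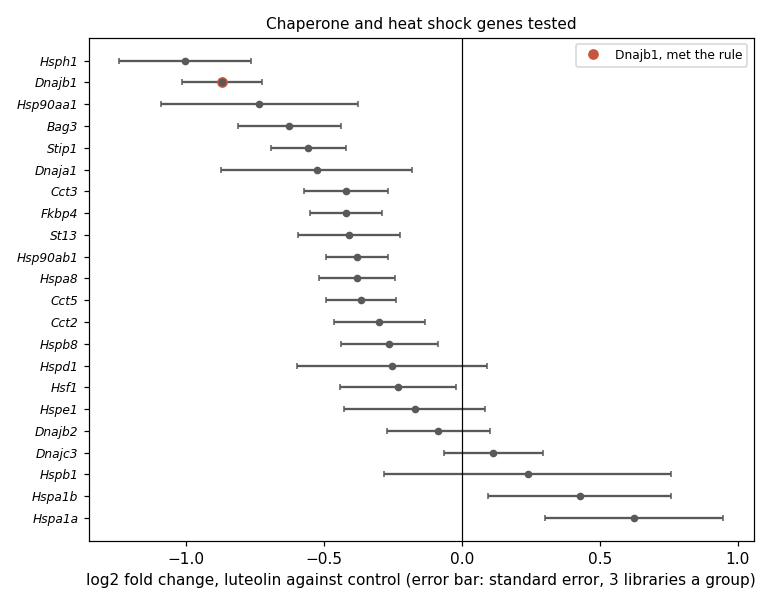
Log2 fold change of luteolin against control for 22 tested chaperone and heat shock genes, with the standard error of edgeR's fit over 3 libraries in each group. Points to the left of 0 were lower in the luteolin group, as for 18 of the 22, and Dnajb1, in red, is the only one that met the selection.

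The largest ratio of the group belonged to Vmn1r43, a vomeronasal pheromone receptor gene, with 17.4, 15.5 and 22.3 CPM in the control libraries and 3.34, 1.94 and 0.125 CPM in the luteolin libraries. Its value in luteolin replicate 3 was 8 counts, the lowest of any gene of the group. The log2 fold change of Vmn1r43, -3.40 (standard error 0.96), became -4.22 without luteolin replicate 1 and -2.88 without luteolin replicate 3. The related receptor gene Vmn1r42 did not exceed 0.483 CPM. The longest GENCODE transcript of Vmn1r43 has 12805 bases, and reads within it need not come from the receptor itself. Ctnnal1, alpha-catulin, had 111, 119 and 131 CPM against 60.3, 48.0 and 58.3 CPM, and Dmtn, the actin-bundling protein dematin, had 7.57, 6.87 and 6.98 CPM against 3.49, 4.55 and 3.64 CPM.

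The start windows of the genes, which the selection did not use, were poor in CpG dinucleotides. The median ratio of observed to expected CpG was 0.46 over 43 windows, against 0.77 over the 10593 windows of genes with a control mean of at least 5 CPM, and a ratio above 0.6 was found in 30.2% of windows against 71.9%. The selection did use the control level, and 24 of the 47 genes (51.1%) had a control mean under 20 CPM, against 24.4% of the background. Among background genes under 20 CPM, a CpG ratio above 0.6 was found in 57.1% of windows. A CpG-poor and a CpG-rich window are shown with every CG in capitals. Zfp235 at chr7:24132122-24132421 (plus strand, GRCm38.p6, RefSeq) had the lowest ratio, 0.068, with 1 CpG, and Rab6b at chr9:103111824-103112123 (plus strand) had the highest ratio among the windows listed first for each gene, 1.02, with 42.
Zfp235: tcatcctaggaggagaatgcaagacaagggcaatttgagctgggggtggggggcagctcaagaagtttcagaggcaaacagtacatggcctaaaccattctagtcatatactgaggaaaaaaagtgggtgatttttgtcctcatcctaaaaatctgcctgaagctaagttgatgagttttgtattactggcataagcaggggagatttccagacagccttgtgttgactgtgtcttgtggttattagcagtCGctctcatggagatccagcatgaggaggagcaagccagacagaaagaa
Rab6b: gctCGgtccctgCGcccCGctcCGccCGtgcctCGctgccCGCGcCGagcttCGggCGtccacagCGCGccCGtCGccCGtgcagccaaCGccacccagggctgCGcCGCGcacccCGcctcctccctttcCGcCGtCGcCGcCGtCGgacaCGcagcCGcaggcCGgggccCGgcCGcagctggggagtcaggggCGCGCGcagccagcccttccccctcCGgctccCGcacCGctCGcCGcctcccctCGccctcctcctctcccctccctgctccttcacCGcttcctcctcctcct
Windows with the half-site TGACG of cyclic AMP response factors (9.3% against 31.7%) and with the ETS motif CCGGAAG (2.3% against 18.8%) were also fewer, and both motifs contain a CpG. The other motifs that hold a fixed CpG were GC box GGGCGG (51.2% against 64.5%), E-box CACGTG (11.6% against 10.1%), full CRE TGACGTCA (4.7% against 3.1%), E2F TTNGCGC (7.0% against 11.2%), NRF1 GCGCNTGCG (7.0% against 14.1%), SMAD GC motif GGCGCC (11.6% against 21.2%), C/EBP TTNCGCAA (0.0% against 1.3%), AhR/XRE TNGCGTG (4.7% against 8.1%) and HRE NACGTG (16.3% against 26.0%). Those without one were TATA box TATAAA (4.7% against 6.6%), AP-1 TGANTCA (2.3% against 5.1%), YY1 AAGATGG (2.3% against 7.3%), SMAD CAGA box CAGACA (23.3% against 15.3%), TEAD CATTCC (14.0% against 11.6%), TCF/LEF CTTTGAA (2.3% against 3.4%), nuclear receptor half-site AGGTCA (14.0% against 12.2%), HNF4 CAAAGTCC (4.7% against 1.2%), HNF1 half-site GTTAAT (7.0% against 4.0%), FOXA TGTTTAC (2.3% against 2.5%), ATF4 CARE TGATGNAAN (4.7% against 2.1%), ARE TGACNNNGC (18.6% against 14.4%), GATA factor motif AGATAA (2.3% against 6.0%), NF-kB GGGNNNNCC (48.8% against 58.2%), ISRE half-site GAAANNGAA (4.7% against 7.0%) and STAT TTCNNNGAA (7.0% against 6.7%). The half-site TGACG lies within TGACGTCA, and CACGTG also counts as NACGTG. The GC content of the longest transcripts was 49.2% at the median against 50.2%.

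**Figure D5:**
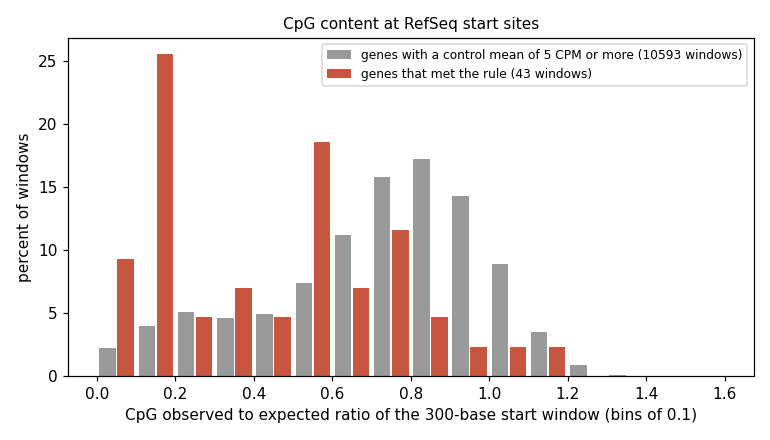
Percent of RefSeq start windows in each bin of the observed to expected CpG ratio, for the 43 windows of the selected genes and the 10593 windows of genes with a control mean of at least 5 CPM. The selected genes have their highest bar between 0.1 and 0.2 (11 windows), and the background between 0.8 and 0.9.

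Within the luteolin group the libraries did not contribute evenly. Luteolin replicate 2 held the lowest value for 26 of the 47 genes (55.3%), replicate 1 for 13 (27.7%) and replicate 3 for 8 (17.02%), against 43.1%, 23.1% and 33.9% of the background genes. After offsets for GC content and transcript length, chosen after seeing the data, replicate 2 was lowest for 44.7% of the group and 45.2% of the background. In the control group, replicate 3 held the highest value for 23 genes (48.9%), against 35.9% of the background. Variation between replicates was modest, with a median coefficient of variation of 12.1% in the control and 14.7% in the luteolin group, against 17.2% and 18.8% over the background, and a rule on the extremes of each group favours a small spread.

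Markers of other cells moved with the groups. None of the 47 genes was in any of 13 lists of cell type markers. The summed level of 11 T cell markers was 16.5, 19.4 and 19.13 CPM in the control and 64.1, 116 and 68.5 CPM in the luteolin libraries, and 11 of 11 were higher in every luteolin library, the most abundant being Lck. The sum of 13 macrophage and monocyte markers, led by Lyz2, was 2298, 1941 and 2158 CPM against 2668, 3967 and 3414 CPM, and 9 of 13 were higher in every luteolin library. For 12 keratinocyte markers, led by Krt14, which was at 0 in the control libraries, the sums were 18.6, 13.6 and 15.8 CPM against 413, 10010 and 21.2 CPM, and 10 of 12 were higher in every luteolin library. Summed levels of 12 skeletal muscle markers (702, 945 and 1453 CPM against 565, 1420 and 354 CPM) and of 12 fibroblast markers (21430, 15930 and 15330 CPM against 20880, 14720 and 14020 CPM) overlapped between the groups, with Myh4 and Fn1 the most abundant. Fn1 made up most of the fibroblast sum, at 19670, 14380 and 13620 CPM against 16390, 8917 and 11570 CPM, while 9 of the 12 fibroblast markers were higher in every luteolin library and 0 lower. Of the skeletal muscle markers, 1 of 12 was higher in every luteolin library. Sums were higher in every luteolin than in every control library for markers of neutrophils (95.2 to 189 against 18.7 to 21.7 CPM, 12 genes led by Csf3r), mast cells (41.04 to 135 against 9.08 to 15.2 CPM, 8 genes led by Hdc), B and plasma cells (82.1 to 185 against 9.63 to 39.2 CPM, 9 genes led by Jchain) and dendritic cells (195 to 290 against 121 to 137 CPM, 9 genes led by Itgax). The sums overlapped for NK cells, endothelium and adipocytes. In the control libraries the NK cell sum was mostly Eomes, which was lower in every luteolin library, while 6 of the 9 NK cell markers were higher in every one. For endothelium 3 of 12 markers were higher in every luteolin library, and for adipocytes 0 of 9. Of the 12 tested endothelial and 8 tested adipocyte markers, 0 had a log2 fold change below 0, and the medians were 0.75 and 1.56. For 10 erythroid markers, led by Epor, the sums were 53.1, 52.4 and 37.2 CPM against 30.1, 41.4 and 19.8 CPM, and 3 of 10 were lower and 0 higher in every luteolin library. All 6 tested erythroid markers had a log2 fold change below 0, with a median of -0.97. The part of a changed cell mixture in the lower values was not tested.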

How the data were processed

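RNA-seq libraries of H22 tumours from 3 control and 3 luteolin samples were used. The authors deposited 1 table of whole-number values for 21720 gene symbols, unscaled between libraries, and treated here as estimated counts: multiples of 4 made up 44.8% of the entries between 1 and 40 (25% if evenly spread), so 1 unit need not be 1 read pair. The submitters' processing notes name bcl2fastq 2.0, HISAT2, StringTie and DESeq2 and the builds mm39 and rn6, without their roles, and no strand setting is given. For RNA extraction and library preparation, the paper names other kits than the labels do. Totals ranged from 61081637 to 80442954 per library. Precision is limited by 3 libraries per group, and p-values measure only the spread between these samples, which may be technical.

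CPM of the column total were used for selection. The members and all lists were chosen with earlier results of these data known. Fold changes came from edgeR 4.0.16 in R 4.3.3 (TMM, filterByExpr, quasi-likelihood test, two-sided, Benjamini-Hochberg adjustment over 14963 genes), and the code was tested on simulated data. In full the text names the 12 genes with the largest ratio, the 8 with the highest control CPM per kilobase, the 4 with the widest gap, up to 4 per fixed list, the 3 on either side of the ratio limit and, for lists with 3 or more genes of the group, the 2 others with the smallest p. Further members and relatives of the same families were added to these after the members were known. Transcript lengths, overlaps and neighbours were taken from GENCODE M21 (longest protein-coding transcript), which had a length for 21478 symbols, and start windows from RefSeq GRCm38.p6. The deposited table gives no positions. The alternatives were DESeq2 1.42.0, RLE and upper-quartile normalization, no filter on low counts, the replicate number as a block, each library left out in turn, other limits in the rule and other scalings.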

Additional observations from a re-analysis of the deposited data

How the results depend on the processing

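The number of genes meeting the rule was 47, and it was 53 with TMM-scaled CPM, 54 with DESeq2 size factors, 61 with no names left out and 37 with a control mean of at least 10 CPM. It was 83 with a control mean of at least 1 CPM, 223 where the lowest control had to lie only 25% above the highest luteolin value and 10 with a ratio limit of 2. After offsets for GC content and length, chosen after seeing the data, 69 genes met it, 41 of them in common with the 47, and Apbb2, Dnhd1, Plscr4, Prss16, Styk1 and Zfp93 did not. Leaving out 1 library in turn gave from 72 to 115 genes (95, 75 and 72 without control replicates 1, 2 and 3, and 72, 94 and 115 without luteolin replicates 1, 2 and 3), as a rule on extremes relaxes with fewer libraries. Trim69 was lost with TMM-scaled CPM and with DESeq2 size factors. Across all tested genes, 28 were lower and 200 higher at an adjusted p under 0.05 in edgeR's test. These counts were 415 and 1543 with DESeq2 and 1 and 34 with the replicate number as a block. Same-numbered libraries did not deviate together (correlations of -0.29, -0.08 and 0.22 for numbers 1, 2 and 3), so the block was not used. With 1 library left out they ranged from 0 to 36 lower and from 0 to 276 higher, and were 0 and 0 without any one control library or luteolin replicate 1, where 429 to 696 genes were lower and 1478 to 1935 higher at an unadjusted p under 0.05. At the threshold of the study the number lower ranged from 140 (without control replicate 3) to 305 (without luteolin replicate 3), against 227 with all libraries. The direction of the 47 log2 fold changes was fixed by the selection. Of 564 alternative values for them, 10 moved by more than 1 SD of the replicates, and the largest shift of all 564 was 0.82, for Vmn1r43 without luteolin replicate 1, which was within 1 SD.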

Other observations

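A total of 14 genes met the numerical conditions and were left out by name, namely 11 predicted genes, 1 RIKEN clone, Gsta4 and Psg17. Gsta4, a glutathione transferase that acts on products of lipid peroxidation, had 43.6, 33.7 and 33.4 CPM in the control libraries and from 11.9 to 13.8 CPM in the luteolin libraries. Psg17, a pregnancy-specific glycoprotein of a family of similar copies, had 18.9, 19.3 and 14.9 CPM against 5.83, 5.89 and 5.64 CPM. The predicted gene with the highest level, Gm21698, had 239, 242 and 309 CPM against 139, 64.5 and 98.7 CPM.

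Smad3, whose family name was left out, had 269, 193 and 208 CPM against 111, 101 and 132 CPM and a lowest control 1.46 times its highest luteolin value, under the limit of 1.5. Rfx5, a transcription factor of major histocompatibility genes, had 46.7, 38.5 and 40.4 CPM against 30.0, 24.3 and 26.9 CPM, and Eomes, from the list of NK cell markers, had 70.7, 81.5 and 89.3 CPM against 48.3, 37.5 and 51.3 CPM. All 3 were picked with their values in view.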
